A study of Mus musculus with 3 samples.

Results

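The genes described here are 6 keratins of the upper layers of stratified epithelia: Krt1, Krt10 and Krt77, which mark epidermis, Krt4 and Krt13, which mark mucosa, and Krt79, which marks the ducts of hair follicles and their glands. They were taken by gene symbol from the 31053 genes of the deposited count table and read in the 10 clusters that the authors named keratinocytes, which held 20321 of 37080 cells. C57Bl/6 mice, an inbred strain bought at 6 weeks of age, gave the tissue, which was distal colon with the anus. The 3 libraries were day 0 (untreated, tissue labelled normal), day 7 and day 42 (dextran sulfate sodium, DSS, at 3% in drinking water for 6 days, tissue labelled severe colitis and recovered, respectively). DSS injures the gut lining. Each library was a pool of 5 mice and there was 1 library per day, so no difference between days has a replicate check, no p-value is given, and every interval below is a 95% interval of counting error (exact Poisson for levels, exact Clopper-Pearson for shares of cells or of counts). The dissected piece spans colon and anal skin, so the amount of each epithelium in a pool also depends on where the tissue was cut, and this cannot be told apart from a change with DSS.

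Keratins build the intermediate filaments of epithelial cells as pairs of a type I and a type II chain. Basal cells of stratified epithelia use Krt5 with Krt14. On leaving the basal layer, cells of the epidermis switch to Krt1 with Krt10, and cells of moist mucosa such as oral, esophageal and anal lining switch to Krt4 with Krt13. Krt77 is a further type II chain of epidermis, and Krt79 is a type II chain of the follicle infundibulum and the sebaceous duct.

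The type II members lay together on chromosome 15 and the type I members on chromosome 11 (mm10 coordinates, GENCODE M21 annotation, all on the minus strand and all protein coding). Krt1 was at 101845426 to 101850794, Krt77 at 101858731 to 101869705, Krt4 at 101918535 to 101924735 and Krt79 at 101929332 to 101940324, a stretch of 94.9 kb that held all 4. Krt10 was at chromosome 11, 99385254 to 99389364, and Krt13 at chromosome 11, 100117327 to 100121566. Their identifiers in the deposited gene table are ENSMUSG00000046834 (Krt1), ENSMUSG00000019761 (Krt10), ENSMUSG00000067594 (Krt77), ENSMUSG00000059668 (Krt4), ENSMUSG00000044041 (Krt13) and ENSMUSG00000061397 (Krt79). Of the 6, 4 had a promoter in the RefSeq table used. The promoters of the type I chain of each pair and of the duct keratin are printed because their cells are compared below. Each is the RefSeq window (GRCm38.p6, minus strand) from 250 bases before to 50 after the start site, with matches to TATAAA (the TATA box), TGANTCA (the AP-1 motif) and CACCC (the core of the KLF motif) on either strand in capitals. No pair of these motifs overlapped, and TGANTCA reads the same on both strands.
Krt10, chr11:99389315-99389614: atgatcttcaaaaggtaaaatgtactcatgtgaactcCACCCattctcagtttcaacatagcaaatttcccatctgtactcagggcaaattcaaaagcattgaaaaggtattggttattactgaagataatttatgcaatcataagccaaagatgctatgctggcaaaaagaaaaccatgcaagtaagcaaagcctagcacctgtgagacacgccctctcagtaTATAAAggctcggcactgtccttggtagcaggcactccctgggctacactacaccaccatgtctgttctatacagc
Krt13, chr11:100121517-100121816: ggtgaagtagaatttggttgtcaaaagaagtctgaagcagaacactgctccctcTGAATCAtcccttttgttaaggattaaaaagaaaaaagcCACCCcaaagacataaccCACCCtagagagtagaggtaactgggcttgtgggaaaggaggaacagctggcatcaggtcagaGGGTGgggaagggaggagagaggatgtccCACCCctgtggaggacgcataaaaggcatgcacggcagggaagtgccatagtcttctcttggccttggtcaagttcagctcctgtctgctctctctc
Krt79, chr15:101940275-101940574: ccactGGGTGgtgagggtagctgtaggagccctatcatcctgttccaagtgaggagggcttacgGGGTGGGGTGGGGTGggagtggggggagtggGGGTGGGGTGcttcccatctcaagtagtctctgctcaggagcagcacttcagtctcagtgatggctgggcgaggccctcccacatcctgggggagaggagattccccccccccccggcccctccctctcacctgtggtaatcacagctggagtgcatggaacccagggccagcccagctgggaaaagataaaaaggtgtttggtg
Of 32851 windows of 300 bases, 13.6% held TATAAA, 7.81% held TGANTCA and 57.5% held CACCC. The Krt10 window held TATAAA at position -26 from the start site and 1 CACCC match. The Krt13 window held TGANTCA at position -196 and 4 CACCC matches, and the Krt79 window held 6 CACCC matches. The Krt77 window (chr15:101869656-101869955) held none of the 3. RefSeq lists 2 windows for Krt13, and the one at the start of the GENCODE gene was used. These matches describe the letters only.

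The libraries held 11037, 14376 and 11667 cells at day 0, 7 and 42, of which 3316, 9035 and 7970 were keratinocytes with a median of 9168, 11481 and 6542 counts (unique molecular identifiers, UMIs, each standing for 1 captured molecule). The keratinocyte markers Krt5, Krt14, Trp63, Dsp, Perp and Sfn were all counted in these cells, with at least 1 of them in 99.7%, 99.9% and 99.9% of the cells. Keratin UMIs were also counted in cells that should lack them, so the T cells (219, 118 and 121 cells, median 2064, 2260 and 1393 UMIs) are set beside shares of cells, and shares were also taken after thinning every cell to 1000 UMIs. Libraries shared 139 cell barcodes, held by 161 keratinocytes among 278 cells. Markers of the myeloid list (Lyz2, Cd74, C1qa, S100a8 and S100a9) summed to 50.3, 1453 and 185 CPM in keratinocytes, with 5 of 5 counted on each day, and their part in the day 7 values was not tested. The median mitochondrial share of a keratinocyte's UMIs was 9.42%, 7.36% and 6.38%. Cluster 12 was shallow, with a median of 1948, 1673 and 1011 UMIs in 51, 1668 and 152 cells. Its median mitochondrial share was 0.179%, 5.00% and 0.225%. At day 0 its hair follicle markers (Krt25, Krt71, Krt27, Tchh, Msx2 and Lef1) summed to 121669 CPM, with a UMI in only 1.96% of cells. These features limit the values of cluster 12. The clusters were made by the authors from these same counts, keratins included, so levels by cluster and cluster sizes are descriptions.

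Among keratinocytes as a whole, the epidermal keratins were lower at day 7 and day 42 than at day 0, while the mucosal keratins parted: Krt4 was lower on both days and Krt13 was higher at day 42. Levels are given as CPM, the counts of a gene scaled to an equal total of keratinocyte UMIs in each library, and a log2 ratio compares 2 libraries after adding 10 CPM to each. Of the 6 members, 0 were higher and 3 lower by at least 1 on the log2 scale at day 7 against day 0, beside 1.15% and 0.971% of the 10088 genes compared. At day 42 against day 0, 1 was higher and 4 were lower, beside 2.31% and 1.99% of 10114 genes. These counts depend on how cells are weighted. With equal weight to clusters the day 7 log2 ratio of Krt1 was -0.01, so that its lower level at day 7 was not seen, the day 42 log2 ratios were -0.50 for Krt1, -0.49 for Krt10 and -1.68 for Krt4, and the day 7 ratio of Krt10 was -0.35, while as a mean of CPM per cell the day 7 ratios were -0.51 for Krt10 and -0.84 for Krt4. The median log2 ratio of the members was -0.87 at day 7 and -2.01 at day 42, against -0.03 and -0.05 over all genes compared. Both comparisons use the day 0 library.

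Krt1, the type II chain of the epidermal pair, stood at 2254 CPM (2238 to 2270) at day 0, 1388 CPM (1381 to 1394) at day 7 and 556 CPM (550 to 562) at day 42. The day 0 library was the highest and the day 42 library the lowest, with log2 ratios of -0.70 and -2.0 at day 7 and day 42. Krt10, its type I partner, stood at 3428, 1658 and 841 CPM in the same order, with log2 ratios of -1.04 and -2.01. The share of keratinocytes with a Krt1 UMI was 55.2%, 59.0% and 23.8%, against 5.94%, 19.5% and 6.61% of T cells. For Krt10 the shares were 51.8%, 60.9% and 32.5%, against 8.22%, 30.5% and 8.26% of T cells. At day 7 more cells of each kind held a UMI while the level was lower, and after thinning the Krt10 share was 27.1%, 25.3% and 12.7% in keratinocytes and 4.62%, 18.5% and 7.78% in T cells.

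Krt77 was counted in few cells and was far lower after DSS. Its level was 162 CPM (158 to 167) at day 0, 3.12 CPM (2.82 to 3.44) at day 7 and 14.2 CPM (13.2 to 15.2) at day 42, with log2 ratios of -3.72 and -2.84. Of keratinocytes, 4.89%, 1.89% and 1.12% held a UMI. No Krt77 UMI was counted in T cells, where 3 UMIs would have been 5.43, 9.04 and 15.05 CPM. The 10 cells with most Krt77 UMIs held 72.3%, 56.0% and 85.7% of all its keratinocyte UMIs, so each of these levels rests on few cells. Without those cells the log2 ratios were -2.28 and -2.20.

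Krt4, the type II chain of the mucosal pair, stood at 997 CPM at day 0, 362 CPM at day 7 and 593 CPM at day 42, with log2 ratios of -1.44 and -0.74. Krt13, its type I partner, stood at 1378 CPM (1366 to 1391), 1179 CPM (1173 to 1185) and 3387 CPM (3372 to 3402), with log2 ratios of -0.22 and 1.29. The pair thus did not keep the same order of days: day 0 was highest for Krt4 and day 42 for Krt13. The share of keratinocytes with a Krt13 UMI was 27.8%, 53.8% and 67.5%, against 2.28%, 18.6% and 24.0% of T cells, and the share with a Krt4 UMI was 46.7%, 43.5% and 35.0%, against 2.74%, 5.08% and 3.31%. The sign of the day 7 ratio of Krt13 depended on the weighting of cells, being 0.23 as a mean of CPM per cell and also 0.23 after thinning. The day 42 ratio of Krt13 was -0.36 when the 9 clusters with at least 50 cells per library were weighted equally.

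Krt79, the duct keratin, stood at 699 CPM at day 0, 445 CPM at day 7 and 99.4 CPM at day 42, with log2 ratios of -0.64 and -2.70. Its share of keratinocytes with a UMI was 24.4%, 33.6% and 8.73%, against 4.57%, 5.08% and 3.31% of T cells, without thinning. The T cells were shallower, so this is not a like comparison. After thinning, the keratinocyte shares were lower, at 13.3%, 15.2% and 3.35%. The part of depth in the gap to T cells was not tested. With equal weight to clusters the day 7 ratio of Krt79 was 0.10 and its day 42 ratio -0.35.

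**Figure D1:**
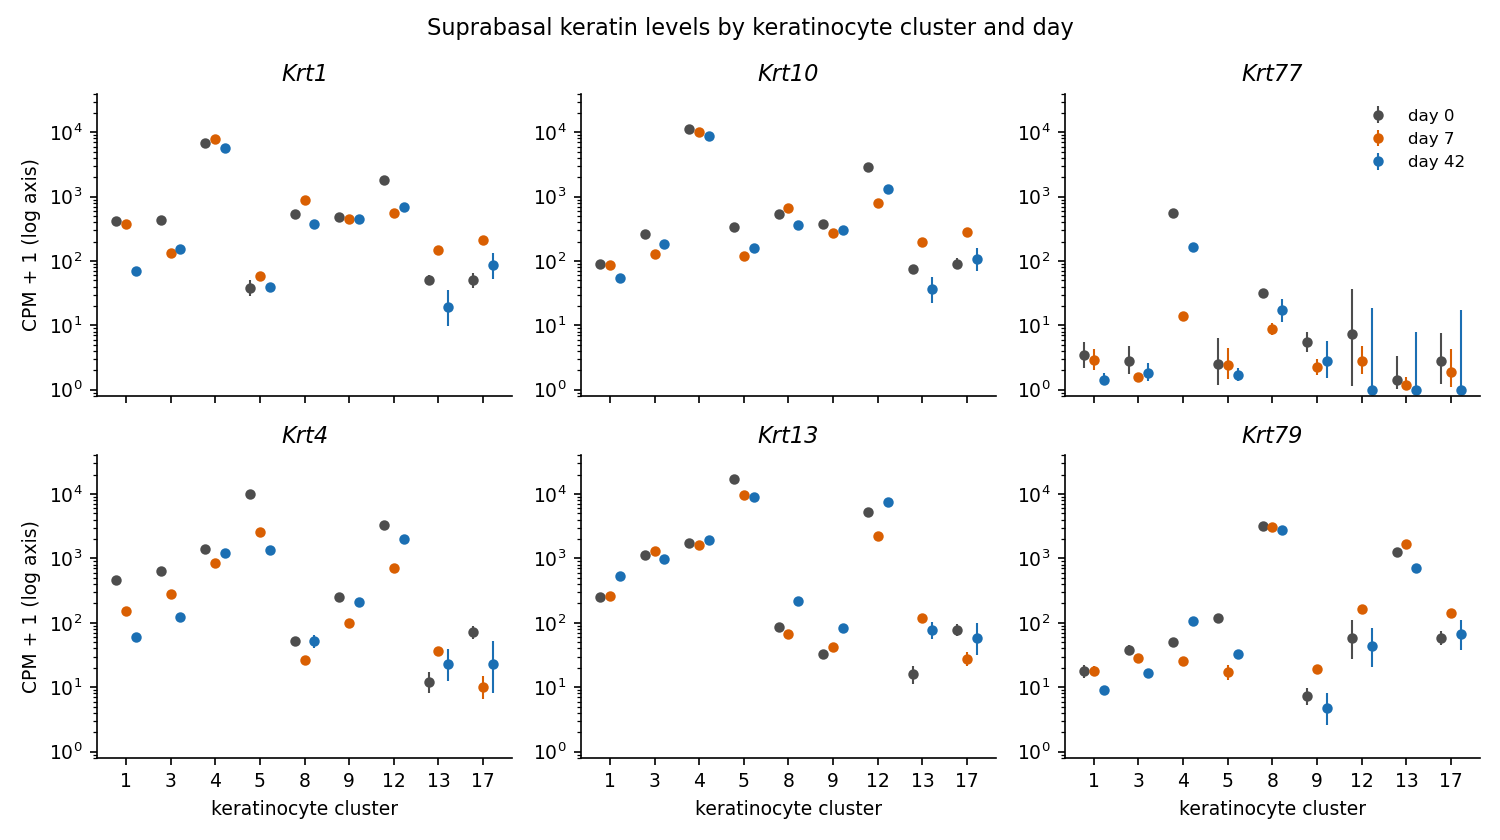
Level of each member in 9 keratinocyte clusters (horizontal axis) at day 0 (grey), day 7 (orange) and day 42 (blue), as CPM plus 1 on a log axis; bars are 95% Poisson intervals. Krt1, Krt10 and Krt77 peak in cluster 4, Krt4 and Krt13 in cluster 5 except for Krt4 at day 42, and Krt79 in clusters 8 and 13.

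By cluster, the epidermal pair lay mainly in 1 place and the mucosal pair in several. Cluster 4 (697, 1315 and 656 cells) held 87.4%, 83.8% and 83.7% of the keratinocyte UMIs of Krt1 and 93.3%, 88.5% and 85.0% of those of Krt10. Cluster 5 (87, 162 and 2153 cells) held 49.8%, 22.1% and 84.0% of those of Krt13 and 40.2%, 19.2% and 73.5% of those of Krt4. Cluster 4 held as much of Krt4 as cluster 5 at day 0, 40.5%, and 34.7% and 16.7% at day 7 and 42, and it held 35.3%, 20.6% and 4.64% of Krt13. Clusters 8 and 13 held 83.4% and 12.6% of those of Krt79 at day 0, 50.3% and 43.8% at day 7, and 68.4% and 6.72% at day 42, when cluster 5 held 10.1%. At day 7 the largest single share of Krt13, 48.5%, was in cluster 3, which then held 1983 cells against 269 at day 0. Cluster 26 held 12, 20 and 3 cells and was not compared.

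Within cluster 4 the main epidermal pair differed little between days. Krt1 stood there at 6922, 7852 and 5711 CPM (log2 ratios 0.18 and -0.28) and Krt10 at 11244, 9913 and 8780 CPM (-0.18 and -0.36). Krt77 was the exception, at 547, 13.1 and 162 CPM, with log2 ratios of -4.59 and -1.70. It was the only member past 1 in cluster 4, lower on both days, beside 0.416% of genes lower at day 7 and 0.0984% at day 42. No member was higher by at least 1, beside 0.514% and 0.24% of genes. Krt4 stood in cluster 4 at 1420, 847 and 1214 CPM and Krt13 at 1709, 1643 and 1927 CPM, so the epidermal cluster also held mucosal keratins on every day.

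Within cluster 5 the mucosal pair was lower on both later days, with log2 ratios further below 0 for Krt4 than for Krt13. Krt4 stood there at 10195, 2593 and 1362 CPM (log2 ratios -1.97 and -2.89) and Krt13 at 17459, 9699 and 8895 CPM (-0.85 and -0.97). The level of Krt13 in cluster 5 was therefore lower at day 42 than at day 0, the opposite of its level over all keratinocytes. In the same cluster the 6 keratinocyte markers summed to 13501, 30227 and 30720 CPM, the 6 colonocyte markers to 946, 288 and 588 CPM and the 5 myeloid markers to 108, 1439 and 249 CPM, and their part in these values was not tested. Of the 5 members with at least 5 CPM in cluster 5, Krt4, Krt10 and Krt79 were lower by at least 1 on both days, beside 2.42% of genes lower at day 7 and 1.99% at day 42. At day 0, 10 of the 87 cells held 95.5% of the Krt79 and 70.7% of the Krt10 UMIs of cluster 5, so these 2 members rest on few cells. None was higher, beside 1.63% and 1.47% of genes. Krt1 stood at 37.4, 56.6 and 38.2 CPM there, and after thinning 4.65%, 4.94% and 3.11% of the cells held a Krt1 UMI, against 3.08%, 11.1% and 5.56% of T cells. The thinned Krt10 shares there were 19.8%, 8.64% and 7.99%, against 4.62%, 18.5% and 7.78% of T cells. The Krt1 shares at day 7 and day 42 and the Krt10 share at day 7 are below those of T cells. The Krt10 share at day 42 is close to that of T cells. The part of background in these shares was not tested.

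Cluster 1, whose largest part came from day 42 (443, 563 and 3043 cells), held low levels of both type II chains at day 0. Krt1 stood at 424, 374 and 68.4 CPM and Krt4 at 455, 153 and 59.4 CPM, while Krt13 stood at 252, 256 and 535 CPM. The type II chains were thus lowest at day 42 and Krt13 highest. After thinning, 29.1%, 25.8% and 4.86% of cluster 1 cells held a Krt1 UMI, and the day 42 value lies below the 5.56% of T cells. In cluster 9 (596, 1007 and 456 cells) Krt1 was nearly level at 475, 451 and 449 CPM, and Krt4 stood at 248, 97.7 and 207 CPM.

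Krt79 was nearly level in cluster 8, at 3219, 3112 and 2781 CPM (log2 ratios -0.05 and -0.21), and in cluster 13 it stood at 1268, 1676 and 719 CPM (0.40 and -0.81). Cluster 13 also held the sebaceous markers Scd1, Mgst1, Plin2, Fasn, Pparg and Elovl3 at a summed 13254, 12318 and 9471 CPM, against 420, 477 and 367 CPM in cluster 8. The cells of cluster 8 numbered 781, 943 and 364 and those of cluster 13 numbered 218, 1138 and 106. Within cluster 8, the 439 day 0 cells with a Krt79 UMI held Krt1 at 750 CPM, against 191 CPM in the 342 cells without. At day 7 these levels were 1131 and 337 CPM, and at day 42 660 and 50.2 CPM. In cluster 13 the order of levels was the reverse at day 0, with Krt1 at 28.2 CPM in 155 cells with Krt79 and 158 CPM in 63 without. The share of those cells with a Krt1 UMI went the other way, 14.2% with Krt79 and 9.52% without. The 158 CPM thus rests on few cells. On the later days the levels lay close together, at 148 and 123 CPM at day 7 and 19.0 and 17.6 CPM at day 42. The cluster 8 cells with Krt79 were also deeper, with a median of 7728 against 6373 UMIs at day 0, and the part of depth in this was not tested.

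The balance of epidermal and mucosal keratin was then read as the UMIs of Krt1, Krt10 and Krt77 as a percent of those of all 5 epidermal and mucosal members. This is a share of captured molecules and not of protein. It was 71.1% (70.9 to 71.3) at day 0, 66.4% (66.3 to 66.5) at day 7 and 26.2% (26.03 to 26.33) at day 42 over all keratinocytes. Within cluster 4 it was 85.7%, 87.7% and 82.4%, and within cluster 5 it was 1.34%, 1.43% and 1.90%. It varied more between days in the other clusters. It was 42.3%, 52.9% and 17.1% in cluster 1, 28.4%, 14.2% and 23.4% in cluster 3, and 89.0%, 94.4% and 73.6% in cluster 8. When each day's mean UMIs per cell in each cluster were combined with the day 0 mix of clusters, the share was 71.1%, 75.9% and 72.2%. With the day 42 mix it was 17.8%, 24.6% and 26.2%. The day 42 value was thus near that of day 0 when the day 0 mix was used. The clusters were made from these same counts, keratins included, so values at a fixed mix are partly set by the clustering and are descriptions. How many cells of each cluster a pool held cannot be told apart from where the tissue was cut. With equal weight to clusters the order of days differed, at 39.1%, 53.5% and 43.0%.

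Inside the mucosal pair, Krt4 was a smaller part of the UMIs on both later days in 5 clusters with more Krt13-holding cells than T cells had. This refers to thinned shares of cells on both later days. In the other 4 clusters the values were also lower, but Krt13 was not above T cells on both days, which limits them. Krt4 made up 42.0% (41.6 to 42.3) of the Krt4 plus Krt13 UMIs of keratinocytes at day 0, 23.5% (23.3 to 23.7) at day 7 and 14.9% (14.74 to 15.03) at day 42. In cluster 5 the share was 36.9%, 21.1% and 13.3%, in cluster 1 it was 64.4%, 37.4% and 9.99%, and in cluster 3 it was 36.2%, 17.5% and 11.3%. The intervals of clusters 13 and 17 at day 42 overlapped those of day 0. Krt13 was also counted in more T cells on the later days, and at day 42 the thinned share of cells with Krt13 was 7.82% in cluster 8, 5.26% in cluster 9, 5.88% in cluster 13 and 4.76% in cluster 17, below the 15.6% of T cells. At day 7 it was 2.78% in cluster 9 and 3.39% in cluster 17, below the 4.63% of T cells. The part of background in Krt13 in these clusters on these days was not tested, and the T cells were few. Clusters 1, 3, 4, 5 and 12 stood above the T cell share on both later days. With the day 0 mix of clusters the shares were 42.0%, 26.9% and 27.9%, lower than day 0 on both later days. In cluster 5 the mean over cells with at least 10 such UMIs was 35.3%, 19.0% and 8.97%. For the epidermal pair in cluster 4, Krt1 made up 38.1%, 44.2% and 39.4% of the Krt1 plus Krt10 UMIs.

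**Figure D2:**
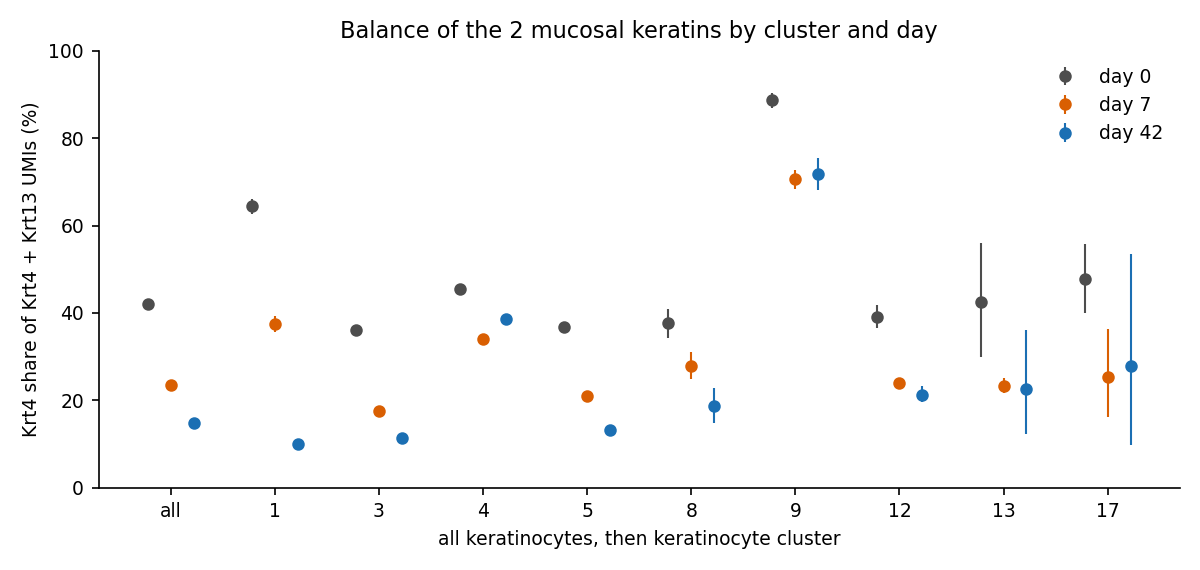
Krt4 as a percent of Krt4 plus Krt13 UMIs (vertical axis) in all keratinocytes and in 9 clusters at day 0 (grey), day 7 (orange) and day 42 (blue); bars are 95% Clopper-Pearson intervals. The day 0 point is the highest in each of the 9 clusters, and in cluster 5 the share is 36.9%, 21.1% and 13.3%. In clusters 8, 9, 13 and 17 a smaller share of thinned cells than of T cells holds Krt13 at day 42.

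The same balance was taken in single cells with at least 10 UMIs of the 5 epidermal and mucosal keratins, which were 1376, 3884 and 3415 keratinocytes. Cells with an epidermal share over 90% are called epidermal, those up to 10% mucosal and those between mixed. Epidermal cells made up 39.4%, 33.0% and 12.3% of them, mucosal cells 13.2%, 30.6% and 71.8%, and mixed cells 47.4% (44.7 to 50.1), 36.3% (34.8 to 37.9) and 15.9% (14.7 to 17.1). Mixed cells were thus the largest class at day 0 and mucosal cells at day 42, while at day 7 the classes were of like size. The classes are ranges of a share: 66, 118 and 48 cells lay between 85% and 90% and 129, 243 and 116 between 90% and 95%, while 40, 337 and 236 lay between 5% and 10% and 39, 214 and 90 between 10% and 15%. Of the mixed cells, 43.7%, 24.9% and 45.2% were in cluster 4, 21.9%, 10.6% and 15.498% in cluster 1 and 17.3%, 38.6% and 15.9% in cluster 3. Cluster 9 held 12.6%, 8.15% and 3.14%, cluster 5 held 0.307%, 0.638% and 16.6%, and the shallow cluster 12 held 2.45%, 12.5% and 2.77%. The day 7 mixed cells of cluster 3 held a median of 2 Krt1 and 2 Krt10 UMIs, and after thinning 9.13% and 7.82% of all cluster 3 cells of that day held Krt1 and Krt10, below the 11.1% and 18.5% of T cells. Krt1 and Krt10 stood at 278 and 242 CPM in the mixed cells and at 31.6 and 42.3 CPM in the mucosal cells of that cluster and day. The part of background in the share of mixed cells at day 7 was not tested.

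**Figure D3:**
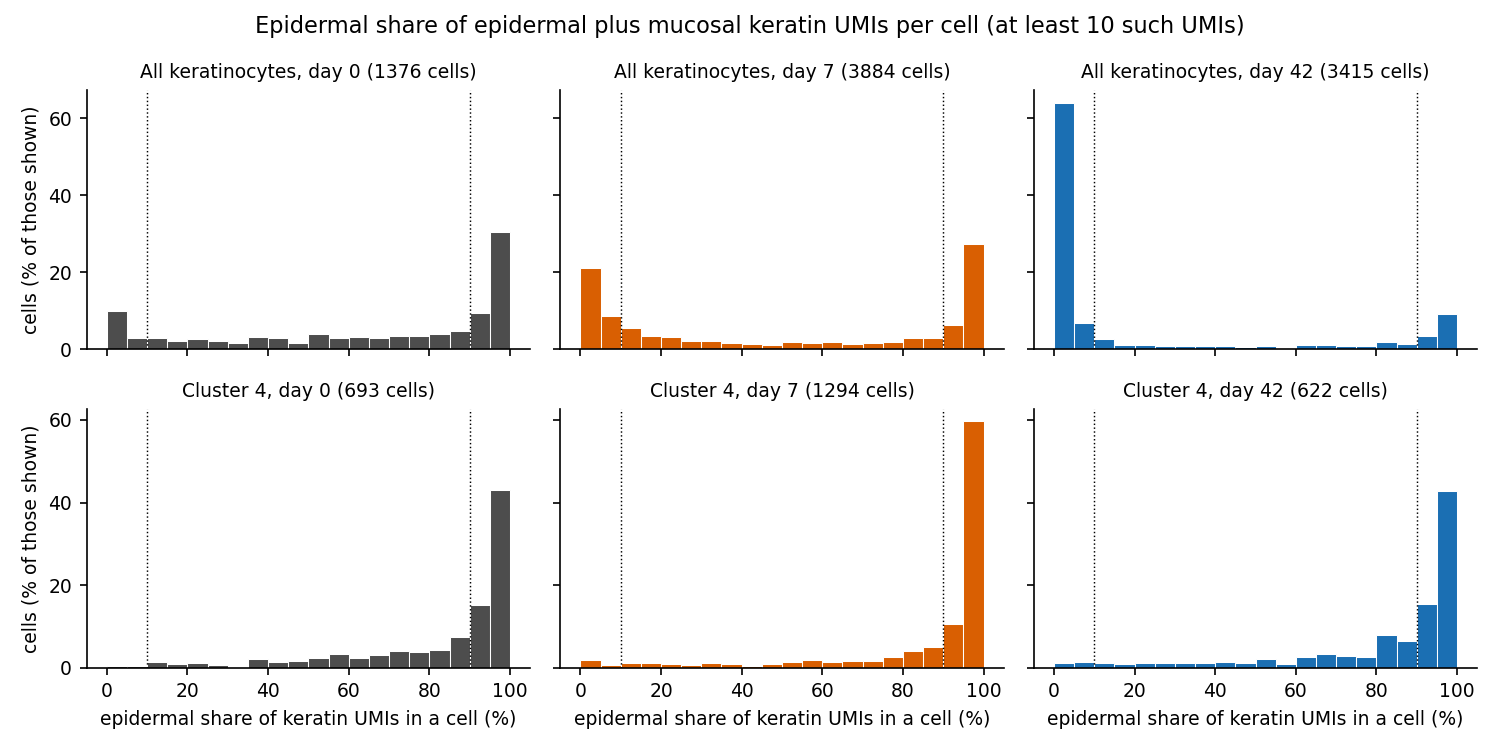
Distribution of the epidermal share of epidermal plus mucosal keratin UMIs per cell (horizontal axis, %) for all keratinocytes (top) and cluster 4 (bottom) at each day, as a percent of cells with at least 10 such UMIs; dotted lines mark 10% and 90%. At day 0 the keratinocytes spread over the whole axis, and at day 42 71.8% lie at or below 10%.

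In cluster 4, mixed cells were 41.1% (37.4 to 44.9) of cells at day 0, 27.2% (24.8 to 29.7) at day 7 and 39.4% (35.5 to 43.4) at day 42. Their median depth was 12616, 12738 and 6842 UMIs, and the median for epidermal cells of that cluster was 13368, 14769 and 6274. A mixed cell of cluster 4 at day 0 held a median of 29 Krt1, 40 Krt10, 15 Krt4 and 15 Krt13 UMIs, at day 7 23, 21, 8 and 18, and at day 42 17, 19, 8 and 8. Among T cells, without thinning, at most 30.5% held a UMI of any single member on any day. T cells were far shallower, and a share of cells is not a median count, so this is not a like comparison. Epidermal cells of cluster 4 held a median of 96, 96 and 41 Krt1 UMIs and of 0 Krt13 UMIs on each day, and a median of 3, 1 and 0 Krt4 UMIs. Of the mixed cells of cluster 4, 0.702%, 5.11% and 3.27% were among the 5% of cells of their library with the highest doublet score from Scrublet, and without those the mixed share was 41.3%, 26.8% and 39.1%. After thinning to 1000 UMIs, with fewer cells reaching 10 keratin UMIs, it was 32.6%, 21.02% and 29.6%. Clusters 1 and 3 also held mixed cells, 75.7%, 73.8% and 19.7% of the cells with enough UMIs in cluster 1 and 72.0%, 39.8% and 28.6% in cluster 3. In cluster 1 at day 42, as in cluster 3 at day 7, the thinned shares of Krt1 and Krt10 over all cells (4.86% and 3.68%) were below those of T cells (5.56% and 7.78%), and the part of background in these mixed shares was not tested. Mixed cells were 59.4%, 46.6% and 45.9% of such cells in cluster 9 and 2.35%, 5.70% and 4.66% in cluster 5. Of all mixed keratinocytes, 1.53%, 8.15% and 8.49% were among the 5% of cells with the highest doublet score. For the mixed cells of cluster 1 this was 1.40%, 4.03% and 14.3%, and for those of cluster 3 0.885%, 7.52% and 15.1%.

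Mixed cells of cluster 4 differed from epidermal cells of that cluster in genes that took no part in the classes. The genes named here were chosen after their levels in the classes were seen. Krt2, a type II keratin of the upper epidermis, stood at 530, 43.9 and 594 CPM in epidermal cells and was counted in 10.4%, 1.87% and 8.33% of them. In mixed cells 4 UMIs were counted at day 0 (1.04 CPM, 0.283 to 2.66) and none at day 7 or day 42, where 3 UMIs would have been 0.645 and 1.60 CPM and 3 cells 0.852% and 1.22% of cells. Dsg1a, a desmosomal cadherin of upper epidermis, was counted in 41.3%, 30.4% and 27.8% of epidermal cells and 4.56%, 6.82% and 4.08% of mixed cells. Dsc1, its desmosomal partner cadherin, was counted in 46.8%, 36.3% and 30.6% of epidermal and 6.67%, 3.98% and 2.86% of mixed cells. Both cadherins were thus lower in mixed cells on each day. Krt6a, a type II keratin of mucosa and of wounded skin, went the other way, with a UMI in 15.4%, 61.4% and 40.0% of epidermal and 66.7%, 89.2% and 80.8% of mixed cells. Mal, a membrane protein of mucosal upper layers, was counted in 0.995%, 1.65% and 3.89% of epidermal cells, 15.4%, 9.38% and 11.02% of mixed cells and 88.5%, 83.3% and 72.7% of cluster 5 cells. For Mal the mixed cells thus lay between the others. Klk10, a secreted serine protease of the kallikrein family, had another order, with a UMI in 16.2%, 28.6% and 8.33% of epidermal, 44.6%, 43.8% and 29.4% of mixed and 34.5%, 59.9% and 5.71% of cluster 5 cells. By share of cells, mixed cells were thus the highest at day 0 and day 42. At day 0 the intervals of mixed (38.7 to 50.5) and cluster 5 cells (24.6 to 45.4) overlapped. The day 0 level of Klk10 was higher in cluster 5, at 166 CPM against 130 CPM in mixed cells.

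**Figure D4:**
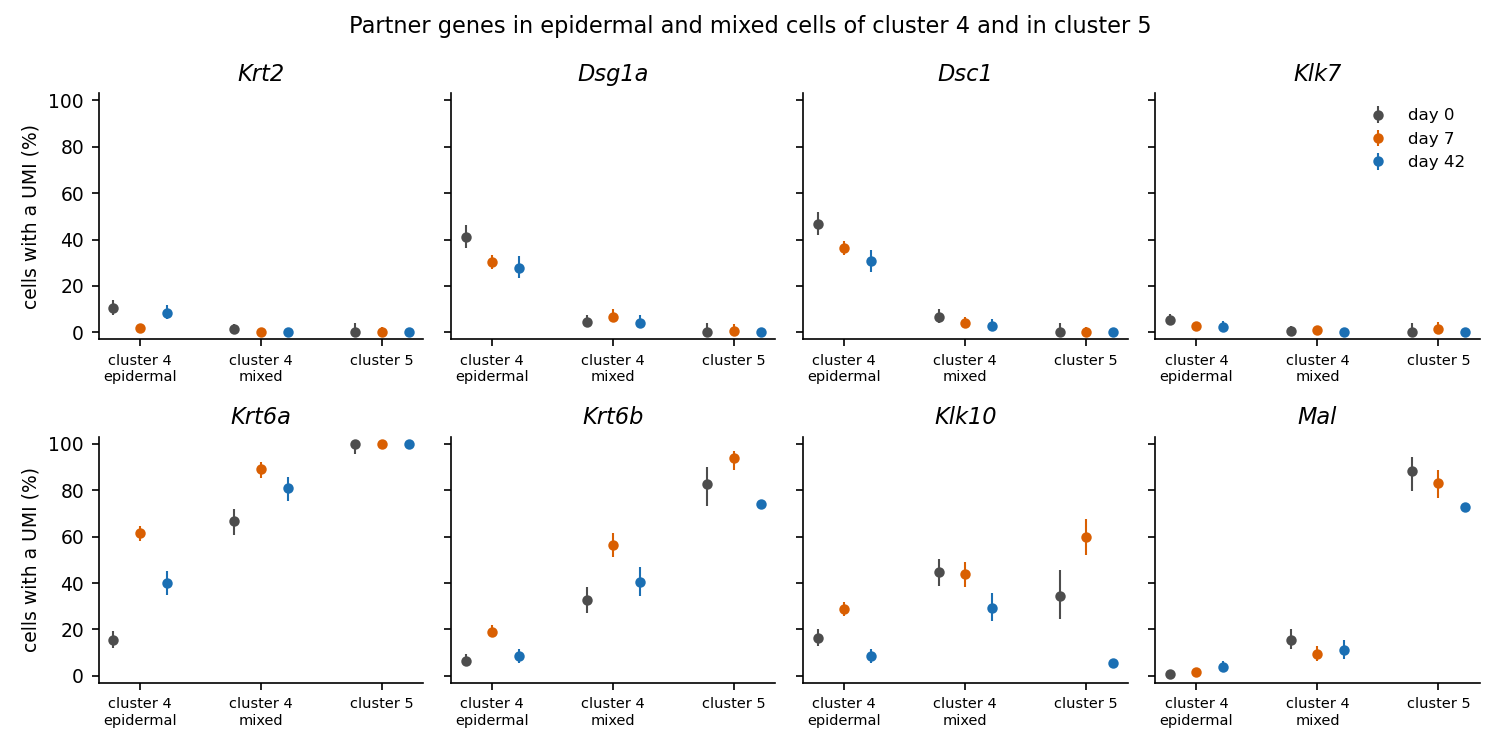
Percent of cells with a UMI (vertical axis) of 8 genes in epidermal cells of cluster 4, mixed cells of cluster 4 and all cells of cluster 5, at day 0 (grey), day 7 (orange) and day 42 (blue); bars are 95% Clopper-Pearson intervals. Dsg1a and Dsc1 are lower in mixed than in epidermal cells on each day, and Krt6a and Krt6b are higher.

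Over the lists, 7 of 14 epidermal partner genes compared at day 0, 10 of 14 at day 7 and 9 of 14 at day 42 were higher in epidermal than in mixed cells of cluster 4 by at least 1 on the log2 scale, and 0 were lower. Of all genes compared, 1.41%, 0.937% and 1.46% were higher and 1.1%, 1.21% and 0.98% lower. The median of the list was 1.22, 1.63 and 1.62, against -0.04, -0.04 and -0.01 over all genes. Genes not past 1 included Dmkn, at 3165 CPM in epidermal and 2226 CPM in mixed cells at day 0, and Krtdap, at 6812 and 4614 CPM, which encode secreted proteins of the upper epidermis. Of the mucosal partners, 8 of 11, 9 of 12 and 6 of 11 were lower in epidermal than in mixed cells and 1, 0 and 1 higher. Of the 3 basal keratins Krt5, Krt14 and Krt15, 3, 3 and 1 were lower. Krt14 stood at 840, 2234 and 1859 CPM in epidermal and 2646, 6740 and 4722 CPM in mixed cells. Of the 20 regulators of suprabasal fate, 0 were higher and 1, 2 and 0 were lower.

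Cells with much Krt77 held more Krt10 and less mucosal keratin than other cells of cluster 4. In cluster 4, 36, 4 and 8 cells held at least 10 Krt77 UMIs, and they held Krt10 at 28145, 31346 and 19507 CPM, against 10026, 9849 and 8076 CPM in the cluster 4 cells with none. Mucosal keratins made up 0.182%, 0.0389% and 0.121% of the epidermal plus mucosal UMIs of the Krt77-rich cells and 16.8%, 12.8% and 18.6% of those of the cells with none. Krt1 was not alike across days in the Krt77-rich cells, at 9371, 19560 and 4113 CPM against 6717, 7785 and 5565 CPM in cells with none, so at day 42 it was lower in the Krt77-rich cells. The day 7 and day 42 figures rest on 4 and 8 cells.

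Co-detection was read in all keratinocytes after thinning each to 1000 UMIs, which left out 34, 468 and 91 shallower cells. An epidermal and a mucosal keratin UMI together were held by 16.7% (15.47 to 18.05) of cells at day 0, 14.4% (13.7 to 15.2) at day 7 and 9.32% (8.68 to 9.98) at day 42. The product of the separate shares was 10.9%, 12.7% and 8.78%. An epidermal UMI alone was held by 23.0%, 22.7% and 8.74% of cells, a mucosal UMI alone by 10.8%, 20.0% and 39.3%, and neither by 49.5%, 43.0% and 42.6%. Among T cells the share with both was 0.513%, 1.85% and 4.44%, and among fibroblasts 0.458%, 1.77% and 0.985%. Without cluster 12 the day 7 value was 11.5%. Without thinning, counting a cell when each group of keratins lay above the 99th percentile of the T cells and fibroblasts of its library, the shares were 16.1%, 6.63% and 1.84%, so the later values depend on how background is set. The day 0 value also moved with thinning and with the number of UMIs asked for. From 1 UMI without thinning, day 7 was the highest (values in the section on processing).

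**Figure D5:**
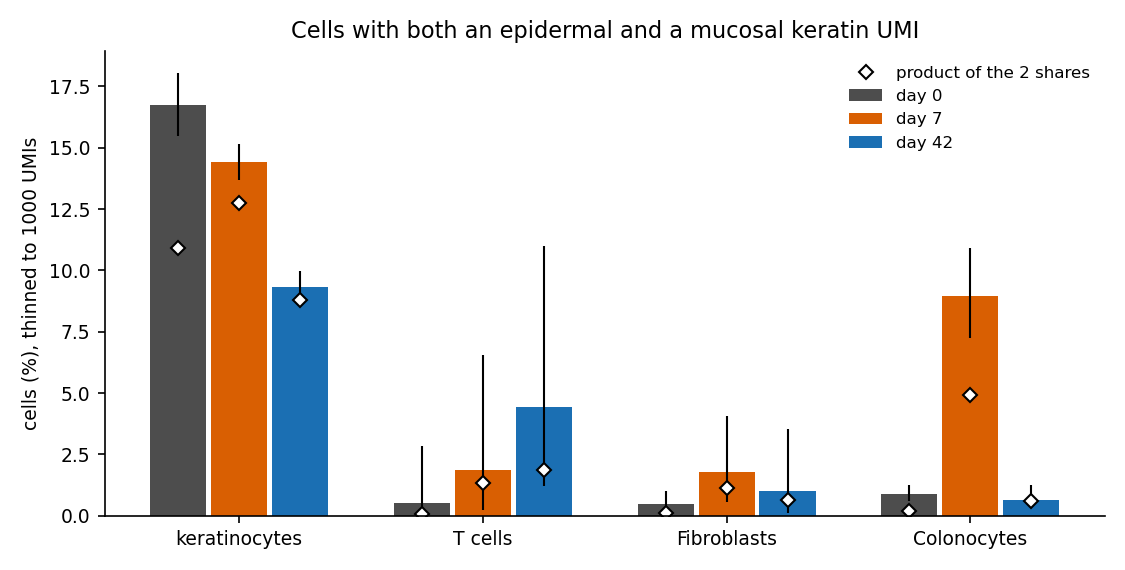
Percent of cells with both an epidermal and a mucosal keratin UMI after thinning to 1000 UMIs, in keratinocytes and in 3 cell types outside the squamous epithelium, by day; bars start at 0, lines are 95% Clopper-Pearson intervals and diamonds give the product of the separate shares. Keratinocytes stand at 16.7%, 14.4% and 9.32%, and the day 7 colonocytes stand at 8.95%.

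Of the 15 pairs of members, Krt1 with Krt10 and Krt4 with Krt13, the partner chains, were together more often than the product of their shares on each day. Krt1 and Krt10 were held together by 20.8%, 17.6% and 7.54% of keratinocytes, 2.33, 2.38 and 4.64 times the product of their shares. Krt4 and Krt13 were held together by 9.66%, 10.6% and 13.2%, 2.92, 2.22 and 1.68 times the product. Across the divide, Krt1 and Krt4 were together in 12.1%, 7.09% and 4.51% of cells, 1.63, 1.41 and 1.97 times the product, and Krt1 and Krt13 in 7.04%, 7.52% and 3.87%, 1.44, 0.922 and 0.693 times. The type II chains Krt1 and Krt4 were thus above the product on each day and Krt1 with Krt13 at day 0 alone. Krt79 was apart from Krt4, with both together in 0.579%, 1.51% and 0.279% of cells, 0.194, 0.577 and 0.465 times the product. Inside cluster 4 an epidermal and a mucosal UMI were held together by 52.0%, 36.4% and 47.9% of cells, 0.990, 0.965 and 0.986 times the product, since nearly all of its cells held an epidermal UMI.

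Genes with a like pattern were sought over 27 points (9 clusters by 3 days) among 2672 genes by Pearson's r of log2(CPM + 10), as a description: the points share libraries, and cluster membership came from these genes. For Krt10 they were Gm94 (r = 0.97), Serpinb3a (0.93), a serine protease inhibitor, and Rdh12 (0.92), a retinol dehydrogenase. For Krt1 they were Fam162a (0.88), Gm94 (0.88) and BC100530 (0.87), and for Krt77 they were Krt2 (0.90), Rdh12 (0.73) and Gm94 (0.72). Krt13 was most like Tmprss11d (0.97) and Tmprss11b (0.96), which are membrane-bound serine proteases, and Lrmp (0.96). Krt4 was most like Csta1 (0.95), a cystatin, Cysrt1 (0.93) and Lrmp (0.91), and Krt79 was most like Nudt17 (0.88), Egr2 (0.86) and Ldhb (0.85). Among the members, r was 0.90 for Krt1 with Krt10, 0.89 for Krt4 with Krt13 and 0.49 for Krt10 with Krt4.

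The lists of partner genes were read in keratinocytes as a whole, with the same background as the members. Of the epidermal partners, 13 of 15 had at least 5 CPM in either library; 0 were higher and 5 lower by at least 1 at day 7 against day 0 (median -0.86), and 0 were higher and 9 lower at day 42 (median -1.39). The lowest at day 7 were Krt2, from 89.5 to 4.81 CPM (log2 ratio -2.75), and Dsg1a, from 68.2 to 15.8 CPM (-1.60). The lowest at day 42 were Calm4, from 2308 to 465 CPM (-2.29), and Sbsn, from 595 to 136 CPM (-2.05), a calcium-binding protein and a secreted protein of upper epidermis. Loricrin (Lor), a cornified envelope protein, was the highest on both days, at 14.5, 25.0 and 18.6 CPM (0.51 and 0.22), followed at day 7 by Dmkn (-0.21) and at day 42 by Krt80 (-0.77).

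Of the mucosal partners, 2 of 12 were higher and 0 lower at day 7 (median -0.31), and 8 of 13 were higher and 1 lower at day 42 (median 1.58). At day 7 the highest were Krt16, from 58.8 to 418 CPM (2.64), and Krt6a, from 765 to 2276 CPM (1.56), which skin also makes when wounded. At day 42 they were Ecm1, an extracellular matrix protein, from 190 to 1589 CPM (3.00), and Krt6a, at 3912 CPM (2.34). Sprr3, a cornified envelope protein of mucosa, was the lowest on both days, at 32.0, 13.7 and 8.60 CPM (-0.83 and -1.18), followed by Crnn (-0.79 and -0.52).

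Of the 10 gland duct and infundibulum genes, 1 was higher and 1 lower at day 7 (median -0.15), and 0 were higher and 5 lower at day 42 (median -0.99). Cst6, a cystatin of skin, was the lowest on both days, at 4713, 1921 and 813 CPM (-1.29 and -2.52), with Plet1 next at day 7 (-0.63) and Defb6 at day 42 (-2.47). The highest were Cidea (1.25) and Krt17 (0.93) at day 7, and Plet1 (0.21) and Krt17 (-0.53) at day 42. Of the 20 regulators of suprabasal fate, 0 were past 1 at day 7 and 2 were higher at day 42. These were Elf3, an epithelial transcription factor, at 33.6, 52.9 and 159 CPM (0.53 and 1.96), and Hes1, a target of Notch, from 161 to 379 CPM (1.18). The others named by the rule were Cebpb (0.40), Trp63 (-0.63) and Ehf (-0.76) at day 7, and Tfap2a (-0.77) and Cebpa (-0.81) at day 42. Of the basal keratins, Krt14 stood at 4685, 9695 and 14455 CPM (1.05 and 1.62), Krt5 at 2269, 3123 and 4319 CPM (0.46 and 0.93) and Krt15 at 1840, 502 and 1399 CPM (-1.85 and -0.39).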

How the data were processed

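Single-cell 3' RNA libraries were made on the 10x Chromium platform after trypsin digestion and removal of dead cells, per the labels' protocols. The values are whole-number counts per gene and cell, as the authors deposited them, with no normalization; Cell Ranger 3.0.2 and mm10 are named per the submitters' processing notes, and the filters on cells and the steps of clustering are not given in the sources used here. Cluster numbers, cell type names and days were taken from the authors' deposited table of cells. Its size factor, a ratio deposited by the authors, was each cell's total count over 5283 and was not used, and the embedding score the authors deposited was not used.

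Counts were summed per library over keratinocytes and per cluster with Python 3.11.15, scipy 1.17.1 and scanpy 1.11.5. Ratios used CPM plus 10, called past 1 on the log2 scale, over genes reaching 5 CPM in 1 or both libraries and clusters with at least 50 cells in each. Thinning drew 1000 UMIs per cell without replacement with a fixed seed. Scrublet scores were computed per library; its own calls marked 3.92%, 0% and 2.36% of cells, so scores were used in place of calls and no cell was removed. The ratio step was tested on simulated data for day 7 and day 42 against day 0 over 31053 genes, with 100 genes changed 2-fold and 100 changed 0.25-fold in each, and 100% of each set came out within 0.1 log2. Where counts are 0, a floor of 3 counts is used.

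The named genes are the 6 members, the 3 genes most like each, and for each list of partner genes the 2 highest and 2 lowest ratios at day 7 and day 42 against day 0; genes that separate the classes of cluster 4 were added after seeing their values. The members and lists were chosen with earlier results of these data known.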

Additional observations from a re-analysis of the deposited data

Results flagged for a closer look

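Among clusters where a member reached 100 CPM at day 0 or day 7, the day 7 against day 0 ratio of 4 members was past 1 in opposite directions in different keratinocyte clusters; these differences were not tested, and cluster 12, which is shallow and had 51 cells at day 0, is the lowest or highest of those clusters for each. At lower levels, Krt4 was also past 1 upward in cluster 13 (1.12, from 10.98 to 35.7 CPM), and Krt13 was at -1.25 in cluster 17 (from 77.0 to 26.7 CPM). The log2 ratio of Krt1 was -1.68 in cluster 12 and 1.88 in cluster 17, and that of Krt10 was -1.83 and 1.56 in the same clusters. In cluster 17 at day 7 a single cell held 339 of the 461 Krt1 UMIs and a single cell 459 of the 630 Krt10 UMIs, so those values rest on very few cells. The log2 ratio of Krt13 was -1.22 in cluster 12 and 2.36 in cluster 13, from 14.8 to 117 CPM. That of Krt79 was -2.29 in cluster 5 and 1.38 in cluster 12. In cluster 5 at day 0, 10 cells held 95.5% of the 156 Krt79 UMIs, and the share of cells with a UMI was 19.5% at day 0 and 19.8% at day 7. In cluster 12 at day 0 the level rests on 9 Krt79 UMIs in 4 cells.

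Cells that the authors named Unknown (1159, 1289 and 924 cells, median 1593, 1850 and 902 UMIs) entered none of the comparisons, and some members stood higher there after DSS than at day 0 beyond counting error. Krt1 stood at 877 CPM at day 7 against 466 CPM at day 0, Krt10 at 672 against 434 CPM and Krt79 at 111 against 76.8 CPM. Krt13 stood at 278 CPM at day 7 and 661 CPM at day 42, against 208 CPM at day 0.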

How the results depend on the processing

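The log2 ratios of the 6 members were recomputed under 11 alternatives, of which 2 (without barcodes found in more than 1 library, without cluster 12) were chosen after seeing the data. Of 132 such values 41 stayed within the counting interval of the reported value, 87 moved beyond it with the same sign and 4 changed sign: Krt13 at day 7 as a mean of CPM per cell (0.23) and after thinning (0.23), and, with equal weight to clusters, Krt13 at day 42 (-0.36) and Krt79 at day 7 (0.10). Some members past 1 came under it. With equal weight to clusters, Krt1 (-0.50), Krt10 (-0.49) and Krt79 (-0.35) did so at day 42 and Krt10 (-0.35) at day 7, while Krt4 at day 42 passed it (-1.68) and Krt1 at day 7, -0.70 as reported, was -0.01. At day 7 Krt10 and Krt4 did so as a mean of CPM per cell (-0.51 and -0.84) and after thinning (-0.49 and -0.89), and Krt10 also with median-of-ratios size factors (-0.90) and without its 10 highest cells (-0.99). The epidermal share at day 0, 7 and 42 was 64.8%, 50.4% and 21.03% as a mean over cells and 39.1%, 53.5% and 43.0% with equal weight to clusters. It was 70.4% at day 0 and 28.7% at day 42 after thinning, 26.02% at day 42 with the filter on cells, 66.1% at day 7 and 25.8% at day 42 without the highest Scrublet scores, 70.9% at day 0 without shared barcodes, and 71.4% at day 0 and 67.4% at day 7 without cluster 12. The share of keratinocytes with both kinds of keratin was 43.1%, 54.8% and 33.1% without thinning, 4.94%, 2.52% and 1.84% from 3 UMIs, 24.4%, 21.1% and 14.7% after thinning to 2000 UMIs, 6.63% at day 7 and 1.84% at day 42 above the 99th percentile of T cells and fibroblasts, and 11.5% at day 7 without cluster 12. Where no construction of the alternative shows the cause, the cause was not tested. No paired analysis was possible because each day is 1 library, and for the same reason no replicate could be left out. Depth limits the co-detection shares, and the number of cells limits Krt77 and cluster 5 at day 0.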

Other observations

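Among cells that the authors named colonocytes, epithelial cells of the colon lining, keratins of stratified epithelium were counted most often at day 7. A Krt13 UMI was held by 7.58% of 3749 colonocytes at day 0, 37.0% of 1015 at day 7 and 24.8% of 1489 at day 42, and after thinning to 1000 UMIs by 1.75%, 16.99% and 8.39%. The thinned T cell shares were 0.513%, 4.63% and 15.6%, so the colonocyte share was above the T cell share at day 0 and day 7 and below it at day 42. An epidermal and a mucosal keratin UMI were held together by 0.890%, 8.95% and 0.657% of thinned colonocytes. The 10 colonocytes with most Krt1 UMIs held 53.0%, 58.8% and 65.5% of the colonocyte UMIs of Krt1.

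In cluster 9 Krt4 made up most of the Krt4 plus Krt13 UMIs on each day, 88.6%, 70.6% and 71.9%, and Krt13 stood there at 31.8, 40.6 and 80.8 CPM, with a thinned share of cells below that of T cells at day 7 and day 42.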
